A study of Bos indicus x Bos taurus with 78 samples.

Results

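In loin muscle of 9 steers labelled dark-cutter at degree 1/3, miRNA levels lay close to those of 53 normal steers, and no miRNA passed the test after adjustment. Steers were placed in groups by the phenotype label, which gives 9 steers of degree 1/3 and 53 normal steers of 78 in all. All were male Bos indicus x Bos taurus crosses, and each gave 1 small RNA library from a Longissimus lumborum biopsy. The study looked for miRNAs associated with dark cutting and its degree. The labels name no treatment and no age, and they do not say how the degree was scored or when the biopsy was taken, so the groups differ in these sources by the phenotype label only.

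MicroRNAs are short RNAs that guide Argonaute proteins to matching messenger RNAs and lower their translation or stability. Many are cut from a shared precursor transcript, so neighbours in a cluster often have related levels, although each can be processed and turned over at its own rate. Beef that cuts dark comes from muscle short of glycogen before slaughter, so that too little lactic acid forms, the meat stays less acid than usual, and it is dark and firm with a dry surface. Skeletal muscle is dominated by the myomiRs, a set that includes miR-1, miR-133a and miR-206.

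Each library held between 2687185 and 4370459 counts in degree 1/3 and between 1427817 and 4535675 in normal steers. The muscle miRNA miR-1 took 83.8% ± 2.51 (SD, n = 9) of the counts in degree 1/3 and 84.2% ± 3.04 (SD, n = 53) in normal steers, so the biopsies of both groups read as muscle. The smallest adjusted permutation p over 6 library measures, among them total count, miR-1 share and number of miRNAs detected, was 0.579 (two-sided, 100000 resamples). Of 7 epithelial miRNAs listed, 6 had a row in the count table. None of these reached the low-count filter, and miR-205 had 0 counts in all 62 libraries. The liver miRNA miR-122 had 18 counts in all 62 together.

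Of 1030 miRNA rows, 272 passed the low-count filter, set at a depth-adjusted level worth 10 counts in 8 or more libraries. None of the 272 passed an adjusted p of 0.05 in edgeR (0%), where the smallest adjusted p was 0.287. DESeq2 and limma-voom also made 0 calls, with smallest adjusted p-values of 0.279 and 0.277. At an unadjusted p under 0.05, edgeR gave 25 miRNAs (9.19%), where 13.6 are expected by chance. DESeq2 gave 25 and limma-voom 27. Of the 25, 11 were higher (4.04%) and 14 lower (5.15%) in degree 1/3. This split rested on single steers and on the scaling. Without replicate 1 of degree 1/3 there were 6 higher and 11 lower, without replicate 7 there were 5 and 12, and without replicate 6 there were 8 and 23. Scaling by the total count alone, in place of the TMM factors that weigh the bulk of miRNAs, moved the median log2 fold change of all 272 from -0.01 to 0.13 and the split to 22 higher and 2 lower. The mean TMM factor was 1.10 in degree 1/3 and 0.993 in the 53 (two-sided permutation test, p = 0.193). Every fold change below is therefore a change in standing among miRNAs, not in amount per cell, and none passed the adjusted threshold.

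The size of any difference was bounded more tightly than its direction. For 254 of the 272 miRNAs, the 95% interval of the fold change lay within 2-fold in either direction. For 181 it lay within 1.5-fold. Only 11 miRNAs had a log2 fold change beyond 0.5 in either direction, and 1 lay beyond 1. Above 0 there were 127 miRNAs (46.7%), and below 0 there were 145 (53.3%). For none of the 272 did the 9 steers lie clear of the 53 (0%). On log2 CPM, the logarithm of TMM-scaled counts per library size, the SD among the 9 steers was larger than that among the 53 for 99 of the 272 miRNAs. The median SD was 0.39 against 0.46. With so few steers an SD seldom takes in rare extreme libraries, and a difference in spread was not tested.

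**Figure D1:**
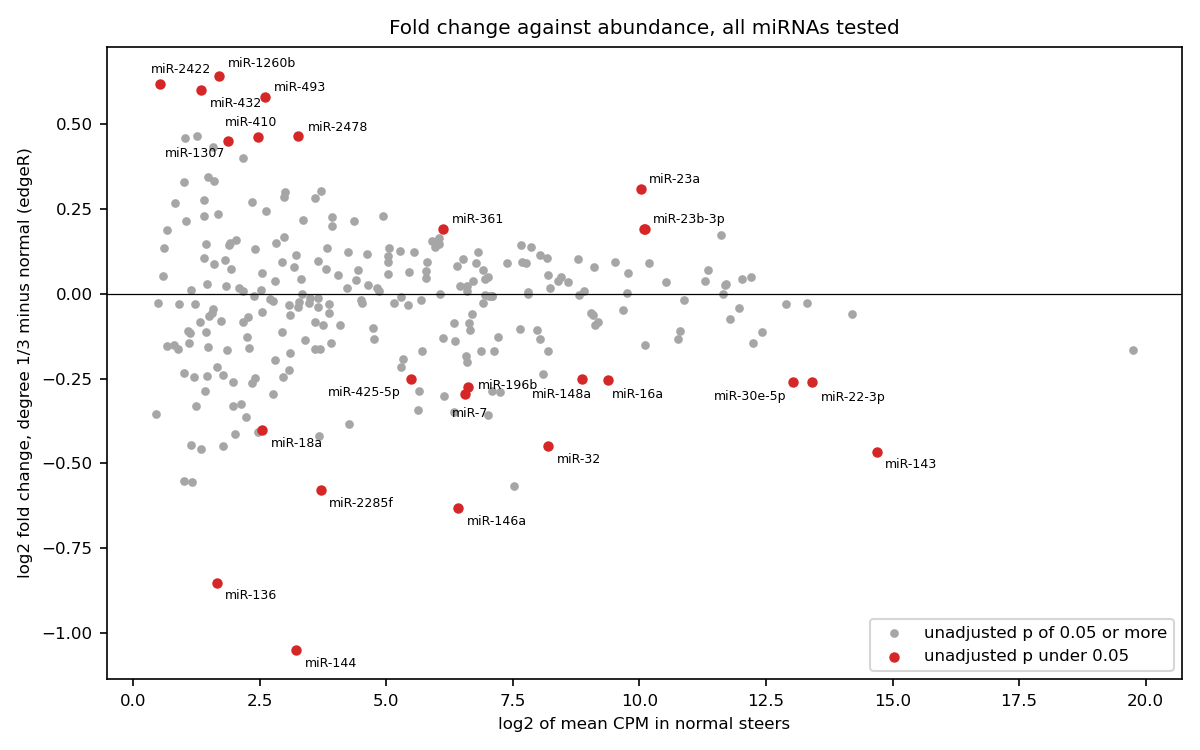
Log2 fold change of degree 1/3 against normal steers (vertical axis, edgeR) over the log2 mean CPM in normal steers (horizontal axis), 1 point for each of the 272 miRNAs tested. Red points are the 25 miRNAs with an unadjusted p under 0.05, none of which passed the adjusted threshold, and the points spread more widely at the low-abundance end.

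The smallest p belonged to miR-493, a miRNA of the imprinted DLK1-DIO3 locus, which encodes a large set of miRNAs on the maternally inherited chromosome. Its log2 CPM in degree 1/3 was 2.55 at the lowest, 3.18 at the median and 4.07 at the highest. In normal steers it was 1.71, 2.74 and 3.54. Of the 9 steers, 8 lay above the normal median, 3 of them above every normal steer, and 21 normal steers lay below the lowest of the 9. The log2 fold change was 0.58 ± 0.17 (SE; edgeR p = 0.00106, adjusted p = 0.287), or 1.49-fold. It lay between 0.43 and 0.65 when any 1 of the 62 libraries was left out, and without replicate 7 of degree 1/3, the lowest of the 9, its adjusted p was 0.0934. The counts behind these values were modest, at 32.6 per library in degree 1/3 and 19.2 in normal steers.

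Its neighbours in the same subcluster went both ways. For miR-432 the log2 CPM in degree 1/3 was 0.98, 2.04 and 2.81 (lowest, median, highest), against -0.20, 1.66 and 2.59 in normal steers. Here 7 of 9 steers were above the normal median, and the log2 fold change was 0.60 ± 0.23 (SE; edgeR p = 0.00955, adjusted p = 0.409). By contrast, miR-136 was at 0.70, 0.93 and 2.01 in degree 1/3 and at -0.15, 1.87 and 3.06 in normal steers. Only 1 of 9 lay above the normal median, 20 normal steers lay above the highest of the 9, and the log2 fold change was -0.85 ± 0.34 (SE; edgeR p = 0.0130, adjusted p = 0.409). Mean counts of miR-136 were 6.22 and 10.1 per library, so a few reads separate the steers. The most abundant tested miRNA of this subcluster, miR-127, was at 0.09 ± 0.14 on the log2 fold scale (5 of 9 steers above the normal median), and miR-370 was at -0.16 ± 0.27 (SE).

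In the larger miR-379 subcluster of the same locus, miR-410 was at 2.04, 2.93 and 4.06 log2 CPM in degree 1/3 and at 1.28, 2.58 and 3.89 in normal steers. The groups overlapped over most of their range, with 6 of 9 above the normal median. The log2 fold change was 0.46 ± 0.21 (SE; edgeR p = 0.0320, adjusted p = 0.435), and 0.24 without replicate 6 of degree 1/3. Further members were above 0 without a p under 0.05: miR-495 at 0.30 ± 0.17, miR-487b at 0.23 ± 0.14 and miR-494 at 0.21 ± 0.14 (log2 fold change ± SE). The 2 most abundant members of this subcluster were below 0, with miR-411a at -0.24 ± 0.14 and miR-379 at -0.17 ± 0.17 (log2 fold change ± SE). In the count table the 2 subclusters have 8 and 52 rows, of which 5 and 23 passed the filter. Of these 28, 19 were above 0 and 9 below, with a median of 0.18, beside 46.7% above 0 and a median of -0.01 over all 272. Split by mean count share over the libraries of both groups, 8 of the 14 more abundant and 11 of the 14 less abundant members were above 0. With total count scaling the miR-379 subcluster had 19 of 23 above 0 in place of 16 of 23, with a median of 0.33 in place of 0.19. Without replicate 5 of degree 1/3 it had 14 of 23 above 0 and a median of 0.08.

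**Figure D2:**
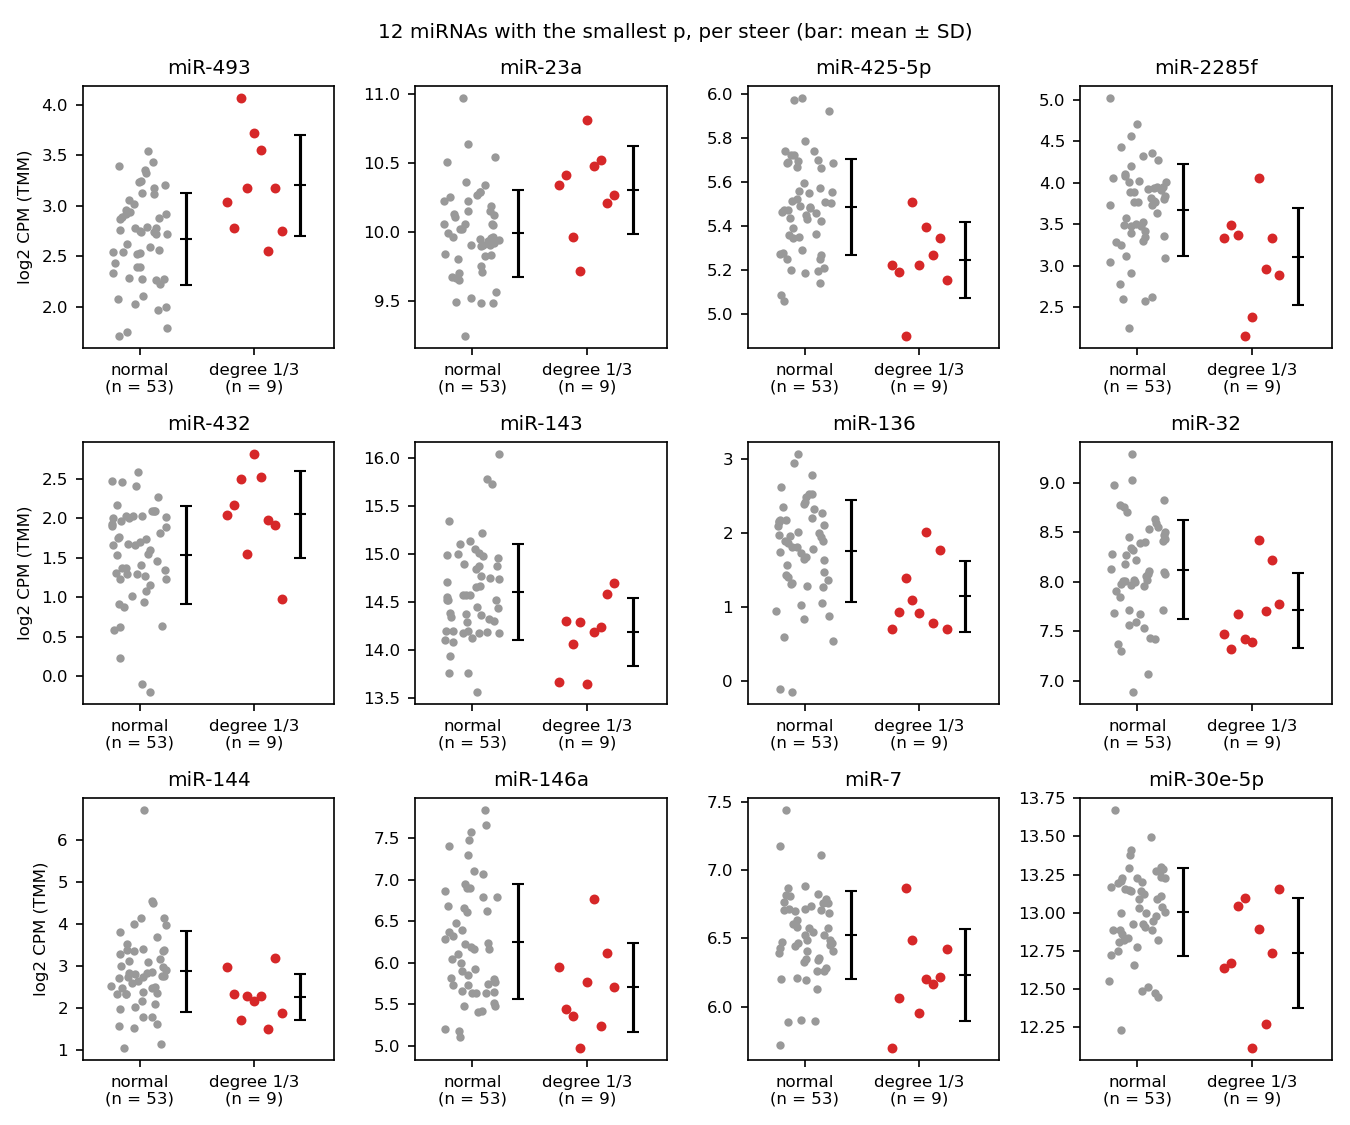
Log2 CPM per steer (vertical axes, TMM-scaled) of the 12 miRNAs with the smallest p, in normal steers (grey, n = 53) and degree 1/3 (red, n = 9), with the mean ± SD as a bar. In every panel the groups overlap, and 3 of the 9 steers lie above the normal range for miR-493.

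The second smallest p was that of miR-23a, which is cut from a common transcript with miR-27a and miR-24 and is known to repress the muscle ubiquitin ligases atrogin-1 and MuRF1, which drive protein loss in wasting muscle. Its log2 CPM was 9.72, 10.34 and 10.81 in degree 1/3 and 9.25, 9.96 and 10.97 in normal steers. In degree 1/3, 8 of 9 were above the normal median, and 11 normal steers lay below the lowest of the 9. The log2 fold change was 0.31 ± 0.11 (SE; edgeR p = 0.00523, adjusted p = 0.409), or 1.24-fold, at mean counts of 4742 and 3364 per library. Of the transcript's other products, miR-27a-3p had 0.06 ± 0.15, miR-24-3p had -0.07 ± 0.13 and the minor arm miR-27a-5p had 0.43 ± 0.26 (log2 fold change ± SE). Differences between these products were not tested. Since miR-24 is also made from the miR-23b transcript, its reads cannot be assigned to either.

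The paralogue miR-23b-3p leaned the same way, at 9.996, 10.20 and 10.61 log2 CPM in degree 1/3 against 9.68, 10.03 and 10.84 in normal steers. In 8 of 9 it exceeded the normal median, and its log2 fold change came to 0.19 ± 0.09 (SE; edgeR p = 0.0312, adjusted p = 0.435). Its cluster neighbour miR-27b was at 0.03 ± 0.07 (SE). The row of miR-10174-3p had nearly the counts of miR-23b-3p in each steer, with a mean log2 ratio of 0.01 between them, and the same log2 fold change of 0.19, so both stand for 1 measurement. Because miR-23a and miR-23b are near-identical in sequence, how the reads were divided between them can touch both values, which was not tested. Among 8 tested miRNAs of a muscle atrophy list that holds both, 5 were above 0 with a median of 0.04, and with total count scaling 6 were. Without replicate 6 of degree 1/3 the median of that list was -0.02.

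Ratios of 2 miRNAs within a library do not depend on the scaling of that library. The log2 ratio of counts of miR-23a to miR-24-3p (with 0.5 added to each count) was -1.38 ± 0.26 (SD, n = 9) in degree 1/3 and -1.75 ± 0.39 (SD, n = 53) in normal steers, with 8 of 9 above the normal median. For miR-23a to miR-27a-3p it was 0.56 ± 0.34 (SD, n = 9) and 0.29 ± 0.39 (SD, n = 53), with 7 of 9 above. For miR-23b-3p to miR-27b it was -1.44 ± 0.21 (SD, n = 9) and -1.61 ± 0.17 (SD, n = 53), with 8 of 9 above. These ratios were picked with the fold changes of their members known, so they describe the steers and carry no test.

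Of 14 ratios computed, that of miR-425-5p to miR-191 was the only 1 with all 9 steers on one side of the normal median. Both miRNAs are cut from the same cluster. The log2 ratio ran from -3.31 to -2.70 in degree 1/3, with a median of -3.10, and from -3.20 to -2.18 in normal steers, with a median of -2.69. The means were -3.04 ± 0.19 (SD, n = 9) and -2.68 ± 0.25 (SD, n = 53), and the ranges overlapped. In CPM, the 5p arm of miR-425 was at 4.90, 5.23 and 5.51 in degree 1/3 and at 5.06, 5.48 and 5.98 in normal steers on the log2 scale. Only 1 of 9 was above the normal median, and 22 normal steers lay above the highest of the 9. Its log2 fold change was -0.25 ± 0.09 (SE; edgeR p = 0.00636, adjusted p = 0.409). On the same scale, miR-191 had 0.10 ± 0.07 and the minor arm miR-425-3p had 0.15 ± 0.23 (SE).

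**Figure D3:**
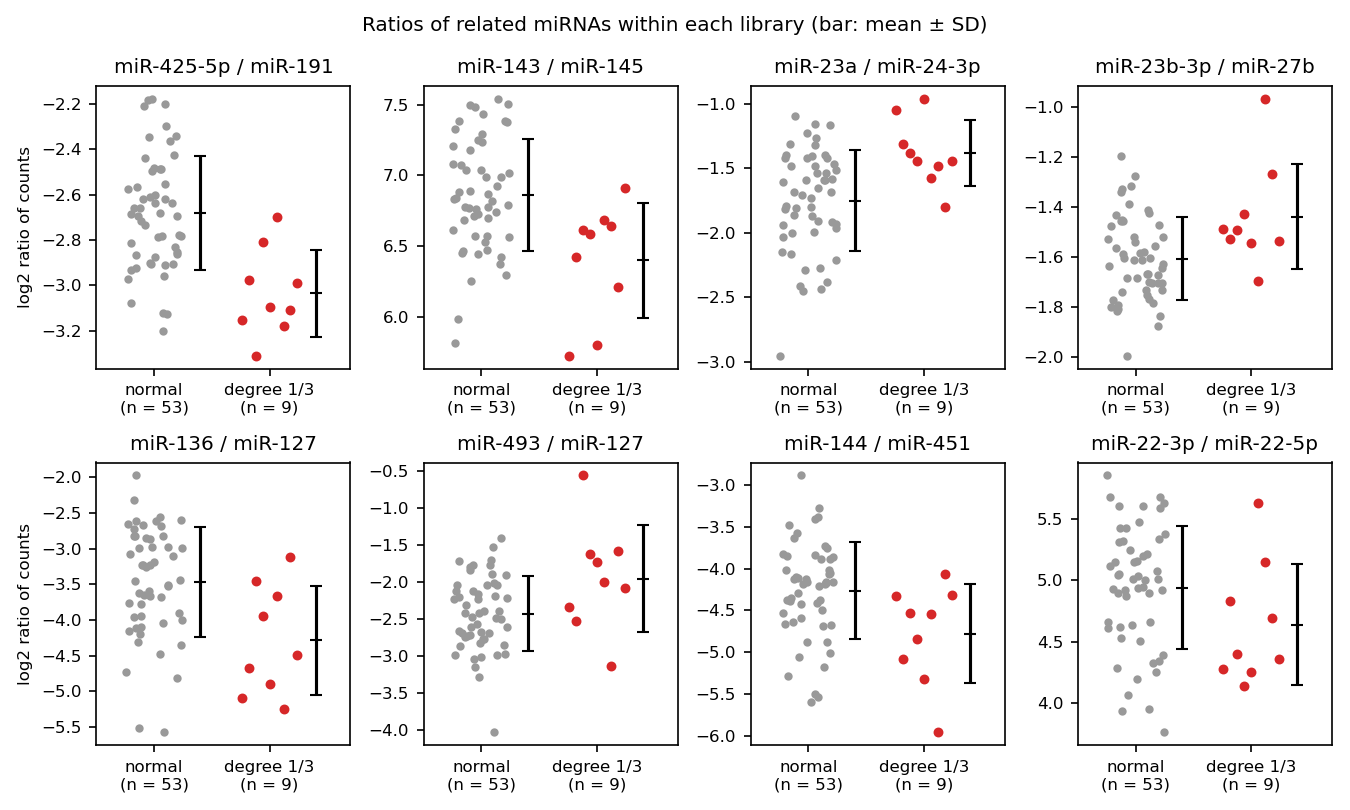
Log2 ratio of the counts of 2 related miRNAs within each library (vertical axes), for normal steers (grey, n = 53) and degree 1/3 (red, n = 9), with the mean ± SD as a bar. All 9 steers lie below the normal median for miR-425-5p to miR-191, and 8 of 9 do for miR-143 to miR-145, miR-136 to miR-127 and miR-144 to miR-451.

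Vessel and connective-tissue miRNAs were led by miR-143, known from smooth muscle cells and pericytes and the second most abundant miRNA here. It was at 13.64, 14.24 and 14.70 log2 CPM in degree 1/3 and at 13.56, 14.55 and 16.04 in normal steers. In degree 1/3, 2 of 9 were above the normal median, and 21 normal steers lay above the highest of the 9. The log2 fold change was -0.47 ± 0.18 (SE; edgeR p = 0.0126, adjusted p = 0.409), or 0.724-fold. In bulk muscle, fewer cells of a type and less RNA per cell cannot be told apart. The partner from the same transcript, miR-145, was at 0.01 ± 0.15 (log2 fold change ± SE), with 6 of 9 above the normal median. The log2 ratio of miR-143 to miR-145 was 6.40 ± 0.41 (SD, n = 9) and 6.86 ± 0.40 (SD, n = 53), with 1 of 9 above the normal median. The endothelial miR-126-3p came to -0.15 ± 0.11 (log2 fold change ± SE), and 0 of 4 endothelial miRNAs were above 0, although all 4 were with total count scaling and 2 were without normal replicate 53. Of 8 fibroblast miRNAs tested, 2 were above 0, with a median of -0.08, and 5 were with total count scaling. The fibroblast median ran from -0.15 without replicate 5 of degree 1/3 to -0.01 without normal replicate 53.

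Among miRNAs of blood, the erythroid miR-144 had the only log2 fold change beyond 1, at low counts and with wide error. Its log2 CPM was 1.498, 2.27 and 3.18 in degree 1/3 and 1.05, 2.77 and 6.71 in normal steers. In degree 1/3, 2 of 9 were above the normal median, and 16 normal steers lay above the highest of the 9. The log2 fold change was -1.05 ± 0.43 (SE; edgeR p = 0.0161, adjusted p = 0.409). The highest normal value came from replicate 19, which also had the highest miR-451, and leaving that library out gave -0.74 for miR-144. In steers with title numbers below 600 alone, miR-144 was at -0.35, nearer 0 than miR-136 at -0.85. Transcribed together with miR-144, miR-451 came to -0.57 ± 0.40 (log2 fold change ± SE) and to -0.14 without normal replicate 19. It exceeded the normal median in 6 of 9 steers. The log2 ratio of miR-144 to miR-451 was -4.78 ± 0.59 (SD, n = 9) and -4.26 ± 0.58 (SD, n = 53). Of 9 miRNAs tested from a red blood cell list, 4 were above 0 with a median of -0.01, and 5 with total count scaling. That list also holds miR-15a of the miR-15 and miR-16 family, so its median and summed level do not track red blood cells alone. The median was -0.16 without replicate 7 of degree 1/3 and -0.08 without replicate 6, with 3 of 9 above 0 each time, and 0.01 without normal replicate 19. Their summed level ran from 1878 to 2310 CPM in degree 1/3 and from 1808 to 5539 in normal steers. The part of residual blood in these values was not tested.

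White blood cell and inflammation miRNAs were led by miR-146a, which is induced by NF-kB and dampens Toll-like receptor signalling. It was at 4.97, 5.71 and 6.76 log2 CPM in degree 1/3 and at 5.11, 6.17 and 7.84 in normal steers. Only 1 of 9 lay above the normal median, which was replicate 6, and 14 normal steers lay above the highest of the 9. The log2 fold change was -0.63 ± 0.26 (SE; edgeR p = 0.0165, adjusted p = 0.409). The leukocyte miR-142-5p was at -0.29 ± 0.20 (SE), and at -0.48 without replicate 6. All 8 white blood cell miRNAs tested were below 0, with a median of -0.10, but this rested on the scaling and on single steers. With total count scaling 5 of the 8 were above 0. Without replicate 3 of degree 1/3 also 5 of 8 were, with a median of 0.01, without replicate 2 or replicate 4 it was 3 of 8, and without replicate 1 the median was -0.20. Their summed level was 130, 164 and 314 CPM (lowest, median, highest) in degree 1/3 and 132, 201 and 445 in normal steers. The 6 inflammation miRNAs, 4 of which are also in the white blood cell list, were all below 0, with a median of -0.08, and 4 were above 0 with total count scaling. Leaving out replicate 2 or replicate 3 of degree 1/3, or normal replicate 31, put 3 of the 6 above 0, and the median ran from -0.15 without replicate 5 to -0.02 without replicate 3. Whether the level of miR-146a follows the number of leukocytes was not tested.

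Several abundant miRNAs of muscle and of many tissues had small negative log2 fold changes. The broadly expressed miR-30e-5p was at 12.11, 12.73 and 13.15 log2 CPM in degree 1/3 and at 12.23, 13.03 and 13.67 in normal steers, and 18 normal steers lay above the highest of the 9. Its log2 fold change was -0.26 ± 0.11 (SE; edgeR p = 0.0183, adjusted p = 0.409), while miR-30a-5p of the same family had 0.05 ± 0.11 (SE). Of the 7 miR-30 miRNAs tested, 6 were above 0, with a median of 0.05. Without replicate 9 of degree 1/3, 2 of the 7 were above 0, with a median of -0.01. For miR-22-3p, which is enriched in striated muscle, the log2 fold change was -0.26 ± 0.13 (SE; edgeR p = 0.0410, adjusted p = 0.485), and the other arm of its hairpin, miR-22-5p, had 0.05 ± 0.09 (SE). The log2 ratio of the arms was 4.64 ± 0.49 (SD, n = 9) and 4.94 ± 0.50 (SD, n = 53), with 2 of 9 above the normal median.

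The miRNA miR-32 belongs with miR-25 and miR-92a to a family that shares a seed. It was at 7.32, 7.67 and 8.42 log2 CPM in degree 1/3 and at 6.88, 8.10 and 9.29 in normal steers. Its log2 fold change was -0.45 ± 0.18 (SE; edgeR p = 0.0152, adjusted p = 0.409), and miR-92a had 0.06 ± 0.08 (SE). The 9 steers overlapped the lower part of the normal range, with 2 above its median. For miR-7, known from neuronal and endocrine cells, the values were 5.70, 6.20 and 6.87 against 5.72, 6.52 and 7.44, with 1 of 9 above the normal median and a log2 fold change of -0.30 ± 0.12 (SE; edgeR p = 0.0169, adjusted p = 0.409).

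In the family of miR-148 and miR-152, whose members share a seed, all 3 were below 0: miR-148a at -0.25 ± 0.11, miR-148b at -0.20 ± 0.11 and miR-152 at -0.11 ± 0.11 (log2 fold change ± SE), but this rested on the settings. With total count scaling miR-148a was at -0.12, miR-148b at -0.07 and miR-152 at 0.03, and with title numbers below 600 alone miR-148a was at -0.02. Of these, miR-148a had an edgeR p of 0.0294 (adjusted p = 0.435). The growth-restraining family of miR-15 and miR-16 was uneven, with miR-16a at -0.25 ± 0.12 (SE; edgeR p = 0.0361, adjusted p = 0.467), miR-16b at -0.17 ± 0.09 (SE) and miR-15a at 0.05 ± 0.13 (SE). Only 1 of 9 was above the normal median for miR-16a and 4 of 9 for miR-15a. From the growth-promoting miR-17-92 cluster, miR-18a had -0.40 ± 0.18 (SE; edgeR p = 0.0316, adjusted p = 0.435), while miR-17-5p had 0.12 ± 0.13 (SE), with 8 of 9 above the normal median. The HOX-cluster miRNAs, which mark body position, were at -0.27 ± 0.13 (SE; edgeR p = 0.0386, adjusted p = 0.478) for miR-196b and -0.13 ± 0.11 (SE) for miR-196a. For miR-196b, 23 normal steers lay above the highest of the 9.

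**Figure D4:**
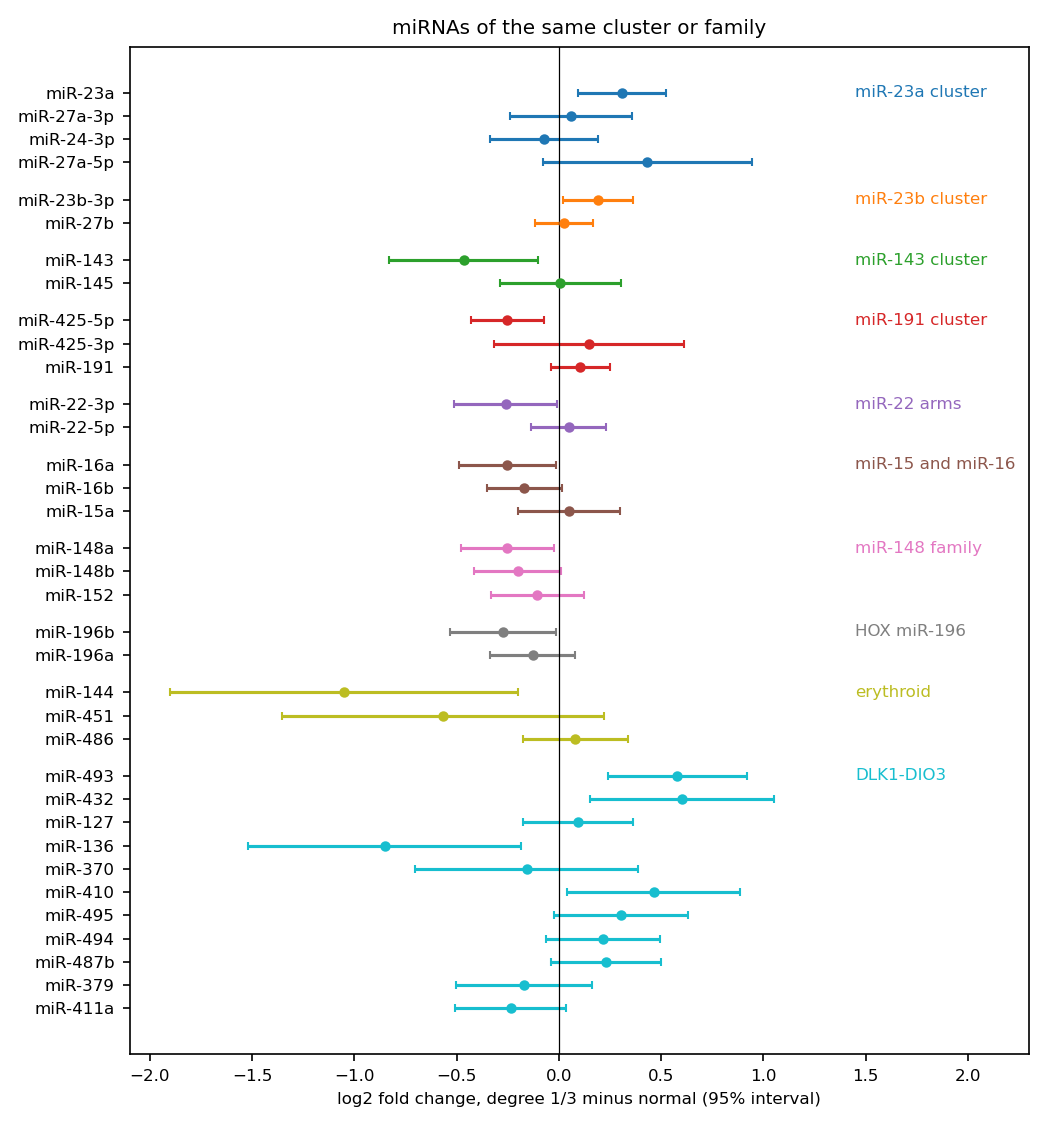
Log2 fold change of degree 1/3 against normal steers with its 95% interval (horizontal axis, edgeR) for miRNAs that share a cluster, hairpin or family, coloured by group. Members of a group differ in size, as with miR-143 at -0.47 and miR-145 at 0.01, and in sign, as with miR-493 at 0.58 and miR-136 at -0.85.

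Other miRNAs with an unadjusted p under 0.05 are named here by level only. The highest share of steers on one side was that of miR-361, with all 9 above the normal median at 6.11, 6.32 and 6.52 log2 CPM in degree 1/3 and 5.73, 6.11 and 6.62 in normal steers. It had 28 normal steers below the lowest of the 9, but a log2 fold change of only 0.19 ± 0.09 (SE; edgeR p = 0.0276, adjusted p = 0.435). The bovine miR-2285f was at 2.15, 3.33 and 4.06 in degree 1/3 and at 2.26, 3.77 and 5.02 in normal steers, with 1 of 9 above the normal median and a log2 fold change of -0.58 ± 0.21 (SE; edgeR p = 0.00757, adjusted p = 0.409). For miR-2478, 8 of 9 were above the normal median and the log2 fold change was 0.47 ± 0.21 (SE; edgeR p = 0.0262, adjusted p = 0.435), or 0.31 without replicate 7 of degree 1/3. Among steers with title numbers below 600 alone, miR-2478 was at 0.03. In miR-1260b, replicate 9 held 0 counts while the other 8 steers held 11 to 37, and the log2 fold change was 0.64 ± 0.27 (SE; edgeR p = 0.0195, adjusted p = 0.409). Low counts also underlie miR-2422 at 0.62 ± 0.31 (SE; edgeR p = 0.0458, adjusted p = 0.519) and miR-1307 at 0.45 ± 0.22 (SE; edgeR p = 0.0484, adjusted p = 0.526).

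Of the muscle fibre's own miRNAs, none of the 7 myomiRs tested had an unadjusted p under 0.05 (edgeR). For miR-1 the log2 fold change was -0.17 ± 0.11 (SE; edgeR p = 0.141, adjusted p = 0.729) and for miR-133a it was -0.06 ± 0.13 (SE), the latter at 0.11 with total count scaling. The skeletal muscle miRNA miR-206 stood at 11.68, 11.76 and 11.91 log2 CPM in degree 1/3 and at 11.04, 11.61 and 12.14 in normal steers. All 9 steers lay above the normal median in a narrow band, with an SD of 0.085 against 0.26, and the log2 fold change was 0.17 ± 0.09 (SE; edgeR p = 0.0555, adjusted p = 0.580). Encoded in introns of slow myosin genes, miR-208b was at -0.35 ± 0.26 (SE) and miR-499 at -0.11 ± 0.14 (SE). Of the 9 steers, 2 and 4 were above the normal median for them, and miR-499 was at 0.04 with total count scaling. Replicate 6 had the highest miR-208b of the 9, and without it the log2 fold change was -0.70. Of 7 myomiRs tested, 3 were above 0 with a median of -0.06, and 5 were with total count scaling, with a median of 0.11. The myomiR median ran from -0.14 without replicate 6 to -0.02 without replicate 9 of degree 1/3.

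Since dark cutting is tied to glycogen, a list of glucose and lipid miRNAs was also read. Of 9 tested, 8 were above 0, with a median of 0.09, and 8 of 9 were with total count scaling, with a median of 0.23. Over all 272 miRNAs the medians were -0.01 and 0.13 in these 2 settings. Whether the members of the list vary separately from each other was not tested. Without replicate 3 of degree 1/3 it was 7 of 9 with a median of 0.05. None of them had an unadjusted p under 0.05. The most abundant, miR-378, which is encoded within a gene for a coactivator of mitochondrial genes, was at 0.03 ± 0.09 (SE) with 5 of 9 above the normal median. Of 10 let-7 miRNAs, 4 were above 0 with a median of 0.00, 1 without replicate 5 of degree 1/3, 7 without replicate 7 and 9 with total count scaling, and let-7f had -0.03 ± 0.09 (SE). The myogenic miR-26a was at -0.03 ± 0.07 (SE), and its interval ran from -0.17 to 0.12.

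**Figure D5:**
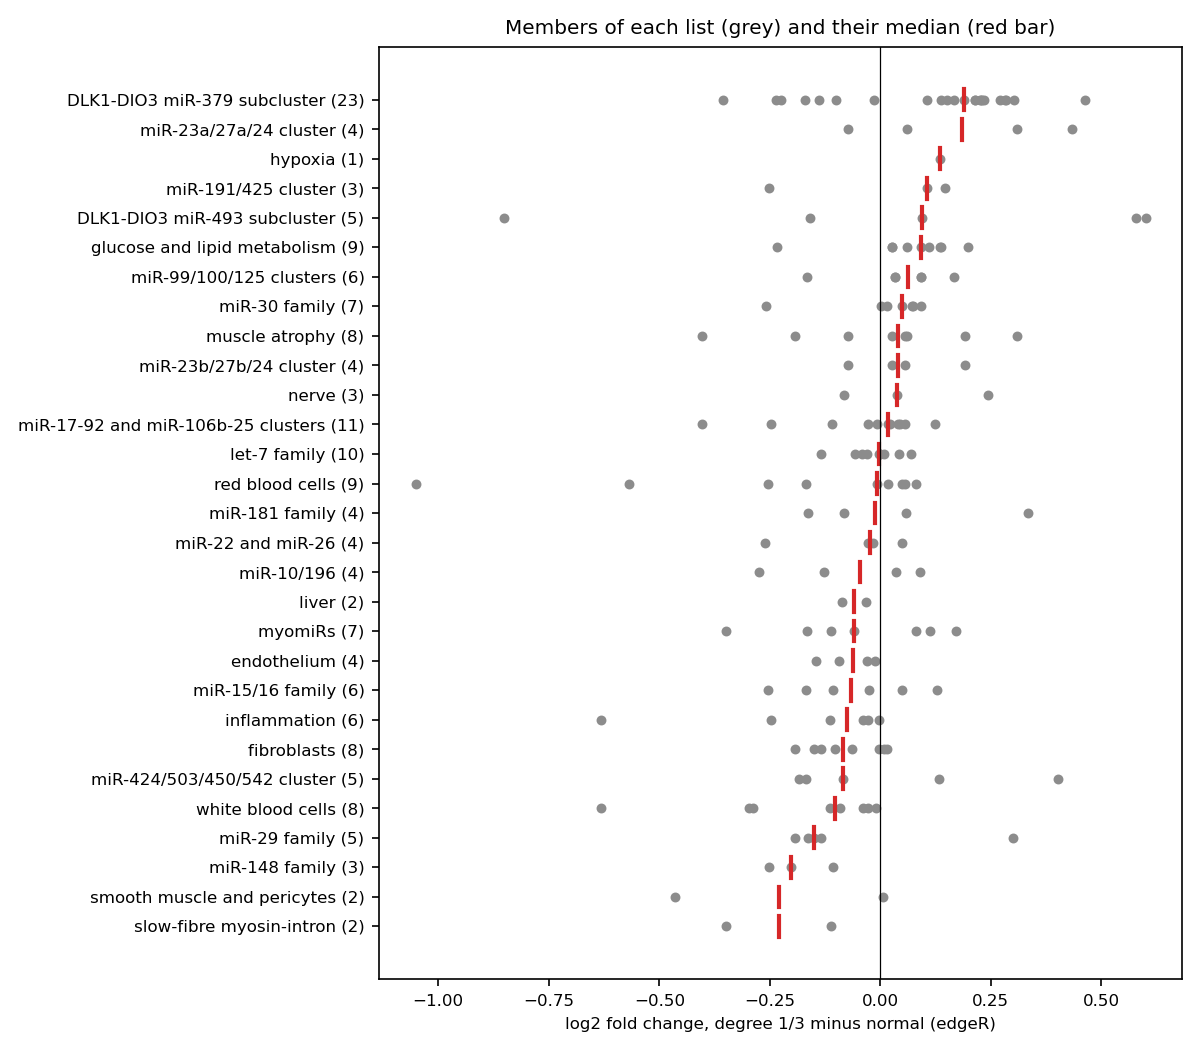
Log2 fold change of degree 1/3 against normal steers (horizontal axis, edgeR) for every tested member (grey points) of each list, with the list's median as a red bar and the number of members in brackets. Medians lie between -0.23 and 0.19, and total count scaling moves all 272 miRNAs together, from a median of -0.01 to 0.13.

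Whether these differences belong to degree 1/3 was asked by comparing the 9 steers with the 16 steers of the other dark-cutting degrees. No miRNA passed the adjusted threshold in edgeR (0%), with a smallest adjusted p of 0.995, and DESeq2 and limma-voom made 0 calls as well. At an unadjusted p under 0.05 there were 8 in edgeR (2.94%), 11 in DESeq2 and 10 in limma-voom, where 13.6 are expected by chance. Those named next were also among the 25 smallest p-values against normal, which rest on the same 9 steers. Among the 8, degree 1/3 minus the others was -0.28 ± 0.10 for miR-425-5p, -0.39 ± 0.15 for miR-196b, 0.29 ± 0.13 for miR-23a, 0.42 ± 0.20 for miR-493 and -0.47 ± 0.24 for miR-2285f (log2 ± SE). Against the same normal steers, the other dark-cutting steers had log2 differences of 0.02 for miR-425-5p, 0.12 for miR-196b, 0.02 for miR-23a, 0.16 for miR-493 and -0.10 for miR-2285f. For miR-1260b, both groups stood above those shared normal steers by like amounts, 0.64 in degree 1/3 and 0.63 in the others. For miR-146a the values were -0.63 and -0.33, and for miR-144 they were -1.05 and -0.75. Some lists leaned the same way in the other dark-cutting steers against normal. Both comparisons use the same normal steers and the same scaling, so a shared lean is no independent check. The list counts of the other dark-cutting steers were not rerun with total count scaling. Over all 272 miRNAs, 121 were above 0 in the other dark-cutting steers, with a median of -0.01. By list, 0 of 8 white blood cell miRNAs (median -0.19) and 1 of 6 inflammation miRNAs (median -0.14) were above 0. In the miR-148 family it was 0 of 3 (median -0.16). Of glucose and lipid miRNAs 7 of 9 were (median 0.09), and of the miR-379 subcluster 16 of 23 (median 0.11). Endothelial and let-7 miRNAs differed from degree 1/3, with 2 of 4 and 7 of 10 above 0. Other lists differed more. In the miR-30 family 0 of 7 were above 0, in place of 6 of 7 in degree 1/3. In the miR-99, miR-100 and miR-125 clusters it was 0 of 6 in place of 5 of 6, and for nerve miRNAs 0 of 3 in place of 2 of 3.

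Against the 8 steers of degree 1/4, the nearest label, edgeR, DESeq2 and limma-voom also made 0 calls, with a smallest adjusted p of 0.995 in edgeR. The unadjusted count was 10 in edgeR (3.68%), 12 in DESeq2 and 11 in limma-voom, where 13.6 are expected by chance. Degree 1/3 minus degree 1/4 was -0.49 ± 0.17 for miR-196b, 0.38 ± 0.15 for miR-23a, -0.53 ± 0.24 for miR-143 and 0.68 ± 0.32 for miR-432 (log2 ± SE). None of these differences is therefore shown to be particular to degree 1/3.

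The labels give no batch, but the title numbers fall in 2 ranges, below 600 for 3 of 9 and 18 of 53 steers. No miRNA passed the adjusted threshold for a dependence of the difference from normal on the range (edgeR, 0%, smallest adjusted p = 0.988). With 3 steers of degree 1/3 below 600, this test cannot show that there is no dependence. At an unadjusted p under 0.05 it gave 7 miRNAs (2.57%), where 13.6 are expected by chance. In the 3 and 18 steers below 600 alone, 10 miRNAs had an unadjusted p under 0.05, and in the 6 and 35 at or above it, 19 did. The 25 miRNAs with the smallest p were chosen over these same steers, so keeping a sign in either range is no independent check. Of the 25, 23 kept their sign below 600 and all 25 at or above it. Of those 23, 3 had less than 50% of their log2 fold change below 600: miR-144 at -0.35 in place of -1.05, miR-2478 at 0.03 in place of 0.47 and miR-148a at -0.02 in place of -0.25. The other 2 of the 25 reversed there, miR-18a to 0.03 and miR-2422 to -0.30. The labels do not say what the title numbers stand for.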

How the data were processed

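Per the labels' protocols, NEXTflex small RNA libraries were made from biopsy total RNA of 78 steers. FastQC, Trimmomatic 0.32 and DESeq2 1.34.0 appear in the submitters' processing notes. No aligner, counting tool or build is given in the sources used here. The counts deposited by the authors are whole numbers for each miRNA and steer, without normalization. The authors' table of fold changes was not used, because it names no contrast. Columns were matched to steers by title number. No library was a near copy of another: over 1891 pairs of the 62 libraries, chi-square divided by its degrees of freedom was at least 9.43. Title numbers were taken as separate animals.

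Counts of all 78 libraries were fitted with edgeR 4.0.16 in R 4.3.3 (robust quasi-likelihood F test, TMM, Benjamini-Hochberg over 272 miRNAs, threshold 0.05). The filter also asked for 15 counts in all. Log2 CPM used a prior count of 2. DESeq2 1.42.0 and limma 3.58.1 (voom), other scalings, filters and sample sets, and leaving out each library were the alternatives. Library measures were compared by permutation in scipy 1.17.1. The fit was tested on simulated data.

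The labels alone set which steers are in each group, while the comparison with its members, the lists and the ratios were chosen with earlier results of these data known. Named miRNAs were drawn from the 25 smallest p-values, the 10 most abundant miRNAs, members of clusters and families holding 1 of those 25, and the 2 most abundant members of other lists. Outside that rule, miR-206 and miR-451 were named after their values were seen. Depth limits the rarest miRNAs, with some at under 10 counts per library.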

Additional observations from a re-analysis of the deposited data

Results flagged for a closer look

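Within the 9 steers of degree 1/3, 4 of 64 sets of values examined (levels of miRNAs named here, and library measures) had 1 steer far from the others by Dixon's criterion, which chance alone meets in about 5% of groups. Replicate 9 had -0.72 log2 CPM of miR-1260b (0 counts), where the next lowest steer had 1.52, and without it the log2 fold change from normal steers was 0.80 in place of 0.64. It also had the lowest miR-17-5p, at 3.90 with the next at 4.29. Replicate 6 had the highest miR-370, at 2.57 with the next at 1.78, and the highest miR-15a, at 7.79 with the next at 7.22. Without replicate 6 the log2 fold change was -0.42 in place of -0.16 for miR-370 and -0.08 in place of 0.05 for miR-15a.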

How the results depend on the processing

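The count of 0 at the adjusted threshold held under all alternatives run, the smallest adjusted p lying between 0.0934 and 0.570 when single libraries were left out. The 25 miRNAs at an unadjusted p under 0.05 became 17 to 31 when single libraries were left out, 62 of 741 with no low-count filter, 10 with title numbers below 600 alone, and 18 to 27 otherwise. All 25 kept their sign under DESeq2, limma-voom, DESeq2 size factors and total count scaling. They also did with miR-1 left out, the 62 libraries alone and the title range as a covariate. These settings reuse the counts that chose the 25, so the kept signs are no independent check. Log2 fold changes that reversed with title numbers below 600 alone were 0.0349 for miR-18a, -0.303 for miR-2422, 0.0418 for miR-411a, -0.0343 for miR-191, -0.0178 for miR-15a, -0.00534 for miR-22-5p, 0.118 for miR-451, -0.139 for miR-486, -0.0804 for miR-378 and -0.195 for miR-92a. With 600 and above alone they were 0.0400 for miR-26a, -0.0261 for miR-30a-5p, -0.0236 for miR-145, -0.0142 for miR-27a-3p and -0.0403 for miR-27b. With total count scaling they were 0.111 for miR-133a, 0.112 for miR-26a, 0.127 for let-7f, 0.0426 for miR-499, 0.0056 for miR-126-3p, 0.0866 for miR-24-3p, 0.000823 for miR-370, 0.0318 for miR-152 and 0.0293 for miR-196a. Leaving out single libraries gave -0.0678 to 0.00218 for let-7f, -0.0806 to 0.0669 for miR-145, -0.0756 to 0.0912 for miR-15a, -0.0666 to 0.0110 for miR-26a, -0.0726 to 0.151 for miR-27a-3p, -0.00966 to 0.0507 for miR-27b, -0.0434 to 0.0908 for miR-30a-5p, -0.0179 to 0.0791 for miR-378 and -0.0200 to 0.131 for miR-486. Apart from the fewer steers or more miRNAs tested, the cause was not tested. Leaving out miR-10174-3p, chosen after seeing the data, gave 23. No paired analysis was possible because replicate numbers only count steers within a group and pair none across groups.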
